A study of Mus musculus with 8 samples.

Results

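Transcripts of 9 genes of the complement system were measured in mouse alveolar organoids: the central component C3, the components C4b, C2, Cfb and Hc, and the regulators Cfi, Cd55, Cd59a and Clu. They were taken by gene symbol from a table of 23284 genes, and a row was found for each of the 9. Complement is a cascade of secreted proteases and their targets that marks cells and microbes for removal. Its classical, lectin and alternative routes meet in the cleavage of C3, after which C5, the product of Hc, starts assembly of a pore in the target membrane. Host cells carry membrane proteins that stop the cascade at their own surface. Most circulating complement comes from the liver, but lung epithelial cells and fibroblasts also make it.

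All cells came from the lungs of Sftpc-eGFP transgenic mice, in which enhanced green fluorescent protein (GFP) marks cells that use the Sftpc gene, the surfactant gene typical of alveolar type 2 cells. The organoids were grown in drops of 90% matrigel in a medium labelled FNHCAS, and the labels name no drug or further allele. Each of 4 lines (SN2285, SN2286, SN2293 and SN2294) was sorted by fluorescence into a GFP-positive and a GFP-negative fraction, with 1 polyA RNA library per sort and line, so n = 4 per group. The question set by the study is how expression differs between these sorts. Age and strain of the mice are not in the labels, nor whether the lines stem from separate animals, so p-values measure only the spread between these libraries.

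Total counts ran from 5910344 to 16032633 per library, with the lowest in the GFP-negative cells of line SN2294. Sftpc itself, on which the sort was made, was 20.3-fold higher in GFP-positive cells. The GFP-negative libraries carried summed basal cell markers at 2030 to 2580 CPM (counts scaled to library totals with a composition factor) and summed fibroblast markers at 383 to 699 CPM, against 23.5 to 73.0 and 10.9 to 20.3 CPM in GFP-positive libraries. Club cell markers summed to 1520 to 2210 CPM in GFP-negative and 55.6 to 344 CPM in GFP-positive libraries, and 3 of the 5 that were tested were lower in GFP-positive cells. Leukocyte markers summed to 280 to 369 CPM in GFP-positive and 184 to 291 CPM in GFP-negative cells, most of it from Cd14, which was present in every library. The leukocyte genes Ptprc and Csf1r reached 4.10 and 10.9 CPM in GFP-negative cells of line SN2294 and at most 0.191 CPM elsewhere. Of the 17 leukocyte markers, 2 were at 0 in that library and 6 to 13 in the others. Endothelial markers summed to at most 5.20 CPM in any library. Alveolar type 2 markers, Sftpc among them, summed to 4370 to 6000 CPM in GFP-negative and 40000 to 44300 CPM in GFP-positive libraries. Alveolar type 1 markers summed to 1410 to 1830 and 1800 to 2500 CPM, respectively, most of it from Aqp5 (means 1193 and 1598 CPM). Of these 7 markers, 4 were higher in GFP-positive cells, Ager among them, 1 was lower (Pdpn) and 2 did not differ detectably. Transcripts of alveolar cells were thus present in the GFP-negative sort as well. In such bulk samples, fewer cells of a type and less RNA per cell cannot be told apart.

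The 9 genes divided into 3 that were higher in GFP-positive cells (Hc, Cd55 and Clu), 4 that were lower (C3, C4b, C2 and Cd59a) and 2 with no call (Cfb and Cfi) at a false discovery rate (FDR) of 0.05 in edgeR's quasi-likelihood test. Of all 12848 genes tested, 40.7% were called, 18.9% higher and 21.8% lower. All 9 genes passed the filter on low counts, C4b and Hc only through the sort where each was high. Their median log2 fold change was −0.03, and that of all genes tested was −0.01. The GFP-positive and GFP-negative levels did not overlap for 7 of the 9 genes, as for 39.5% of all genes tested. For C4b and Hc, which are among the 7, the lack of overlap was fixed by the filter and is no further result. With line as a term in the fit, 48.0% of all genes were called, 22.8% higher and 25.2% lower, and the 9 genes divided into the same numbers, 3 higher and 4 lower.

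Levels of different genes were compared as CPM per kilobase of the principal transcript. Clusterin (Clu), a secreted chaperone that binds the forming pore and keeps it out of membranes, stood far above all others at 11820 ± 995 CPM per kilobase (SD) in GFP-positive and 6045 ± 1240 in GFP-negative libraries. C3 came next in each sort, at 39.8 ± 9.71 CPM per kilobase in GFP-positive and 114 ± 13.2 in GFP-negative cells. Cd55 followed at 33.6 ± 3.02 and 12.0 ± 1.81 CPM per kilobase. The ranges of C3 and Cd55 overlapped in GFP-positive cells and were apart in GFP-negative cells. Cfb came after Cd55 in each sort, at 9.09 ± 6.64 and 9.06 ± 6.44 CPM per kilobase. Below it the order differed between sorts. In GFP-positive cells it ran Cd59a, C2, Hc, Cfi and C4b, with overlapping ranges for C2 and Hc and for Hc and Cfi. In GFP-negative cells it ran C2, Cd59a, C4b, Cfi and Hc, where only Cd59a and C4b overlapped among neighbours, and Cfb overlapped with both Cd55 and C2.

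**Figure D1:**
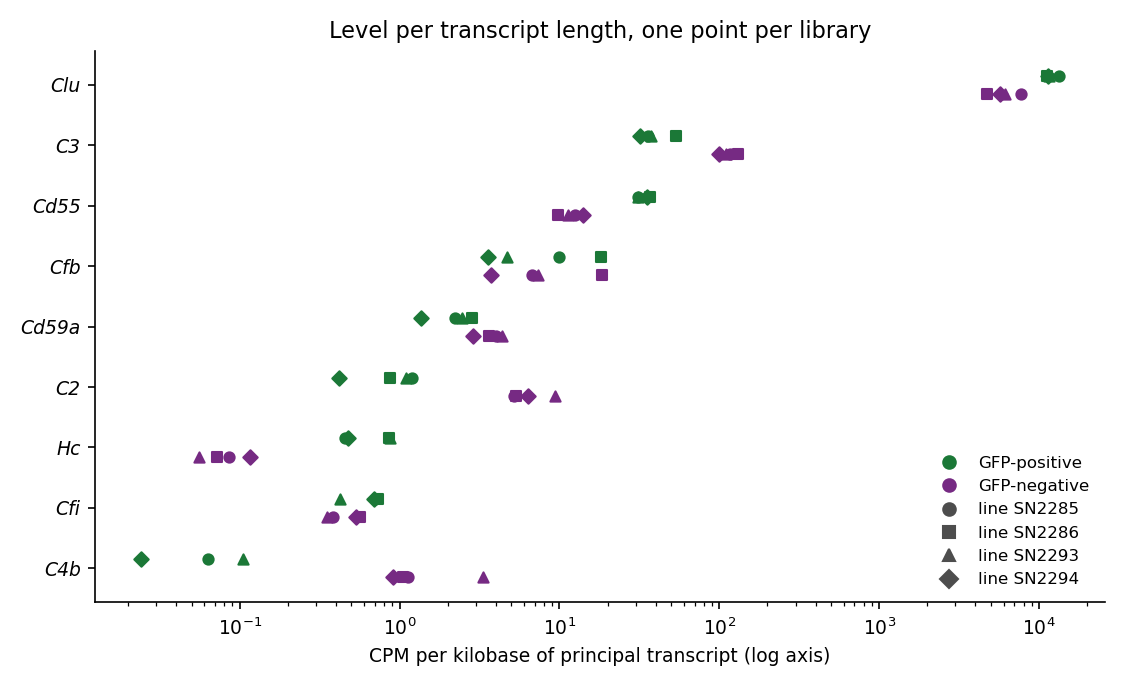
Level of each of the 9 genes in CPM per kilobase of principal transcript (log axis), 1 point per library, coloured by sort and shaped by line; C4b in the GFP-positive library of line SN2286, at 0, is not drawn. Clu lies above all others in each library, and C4b comes last in GFP-positive cells and Hc in GFP-negative cells.

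Clu had the highest count of all 23284 genes in every one of the 8 libraries, ahead of Sftpc, which was second in each GFP-positive library. It made up 2.29% of all counts in GFP-positive cells of line SN2285 (95% Clopper-Pearson interval 2.28 to 2.30%) and 1.89% (1.88 to 1.90%) in those of line SN2286, the highest and lowest of the sort. In GFP-negative cells the highest share was 1.44% (1.44 to 1.45%) in line SN2285 and the lowest 0.888% (0.883 to 0.892%) in line SN2286. Such intervals cover counting error only, since reads amplified by PCR and carrying no molecular identifier may stem from the same molecule.

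In lines SN2285, SN2286, SN2293 and SN2294, Clu stood at 24078, 20163, 20780 and 20587 CPM in GFP-positive cells. The GFP-negative cells of these lines, in the same order, held 13883, 8495, 11143 and 10246 CPM. The sorts did not overlap, and line SN2285 was the highest in each. The difference was 1.96-fold (log2 ratio 0.97 ± 0.13 SE, edgeR adjusted p = 1.3e-04), with log2 differences within lines of 0.79 to 1.25.

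C3, whose cleavage all routes share, was lower in GFP-positive cells. Its levels there were 185, 277, 193 and 163 CPM in SN2285, SN2286, SN2293 and SN2294, respectively, and 602, 673, 564 and 511 CPM in the GFP-negative cells. Line SN2286 was highest and line SN2294 lowest in each sort, and the sorts did not overlap. The difference was 2.87-fold (log2 ratio −1.52 ± 0.16 SE, edgeR adjusted p = 2.6e-05), and −1.28 to −1.70 within lines. C3 and Clu thus ran in opposite directions, with 72.8 to 130 Clu reads per C3 read where GFP was present and 12.6 to 23.1 where it was not.

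C2 and C4b, which together form the C3-cleaving enzyme of the classical and lectin routes, were lower in GFP-positive cells as well. C2 stood at 3.17, 2.29, 2.90 and 1.11 CPM in the GFP-positive and 13.6, 14.1, 24.7 and 16.9 CPM in the GFP-negative cells, in the same order of lines. That was a 7.43-fold difference (log2 ratio −2.89 ± 0.31 SE, edgeR adjusted p = 2.0e-05), and no GFP-positive library reached a GFP-negative one.

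C4b was close to absent from GFP-positive cells, with 4, 0, 7 and 2 reads, against 91, 86, 295 and 31 reads in GFP-negative cells. The latter came to 6.08, 5.65, 18.0 and 4.88 CPM, so that line SN2293 stood apart from the other 3. The log2 fold change was −5.03 (SE 0.70, adjusted p = 3.1e-04, edgeR). It was −4.37 without the GFP-negative library of line SN2293 and −5.70 when the GFP-positive one of that line was left out, with the call kept. C4a, the near copy of C4b, had 3 to 14 reads per library. Of the 50-base stretches of the C4b transcript, 35.2% also occur in C4a transcripts, so reads may have been lost or split between them.

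Cfb supplies the protease of the C3-cleaving enzyme of the alternative route. It did not differ detectably between sorts, with 27.2, 49.6, 12.9 and 9.82 CPM in GFP-positive and 18.5, 50.5, 20.0 and 10.2 CPM in GFP-negative cells. The levels overlapped over almost their whole range. Line SN2286 was the highest in each sort and line SN2294 the lowest. The log2 fold change was −0.03 (SE 0.68, adjusted p = 0.98, edgeR), and 0.55, −0.02, −0.63 and −0.09 within lines SN2285, SN2286, SN2293 and SN2294. With line as a term the log2 fold change was −0.03 with an SE of 0.16 (adjusted p = 0.91, edgeR). Cfb lies next to C2 in the genome, and these neighbours share none of the 50-base stretches of the C2 transcript.

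Cfi, a protease that inactivates the cleaved forms of C3 and C4, was rare, at 1.46, 1.52, 0.885 and 1.43 CPM in GFP-positive and 0.802, 1.18, 0.730 and 1.10 CPM in GFP-negative cells. It stood higher in the GFP-positive library in all 4 lines, but the sorts overlapped and the test was not passed (log2 ratio 0.49 ± 0.32 SE, edgeR adjusted p = 0.26).

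Hc, which encodes C5, was higher in GFP-positive cells at a low level. It had 29, 49, 59 and 40 reads in GFP-positive and 7, 6, 5 and 4 reads in GFP-negative libraries, or 2.49, 4.67, 4.75 and 2.60 CPM against 0.468, 0.394, 0.304 and 0.630 CPM. Lines SN2286 and SN2293 were the highest in GFP-positive cells and the lowest in GFP-negative ones. The difference was 8.37-fold (log2 ratio 3.07 ± 0.37 SE, edgeR adjusted p = 4.0e-05). Other genes overlap Hc in the reference annotation, and C3, Cfb and Cfi are likewise each overlapped by another gene. The strand setting of the counting is not given in the sources used here.

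Among the membrane-bound regulators, Cd55 and Cd59a went in opposite directions. Cd55 (decay-accelerating factor), which breaks up the C3-cleaving enzymes, stood at 78.7, 93.8, 78.9 and 89.4 CPM in GFP-positive and 31.9, 25.0, 28.9 and 35.8 CPM in GFP-negative cells. The sorts were well apart, 2.82-fold (log2 ratio 1.50 ± 0.11 SE, edgeR adjusted p = 9.1e-07). Line SN2286 was the highest GFP-positive and the lowest GFP-negative library. An antisense gene overlaps Cd55, and its near copy Cd55b, listed as Daf2, had 4 to 9 reads per GFP-positive library and 0 to 2 per GFP-negative one. Of the 50-base stretches of the Cd55 transcript, 13.3% are shared with Cd55b.

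Cd59a, which blocks the last step of pore assembly, was lower in GFP-positive cells, at 4.03, 5.14, 4.43 and 2.47 CPM against 7.29, 6.57, 7.85 and 5.20 CPM. The highest GFP-positive library fell just short of the lowest GFP-negative one, and line SN2294 was the lowest in each sort. The difference was 1.71-fold (log2 ratio −0.77 ± 0.24 SE, edgeR adjusted p = 0.021). The call was lost without the GFP-negative library of line SN2285 (adjusted p = 0.054) or of line SN2293 (adjusted p = 0.069). Cd59b, its neighbour and copy, stood below 1 CPM in every library and shares 3.98% of the 50-base stretches.

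**Figure D2:**
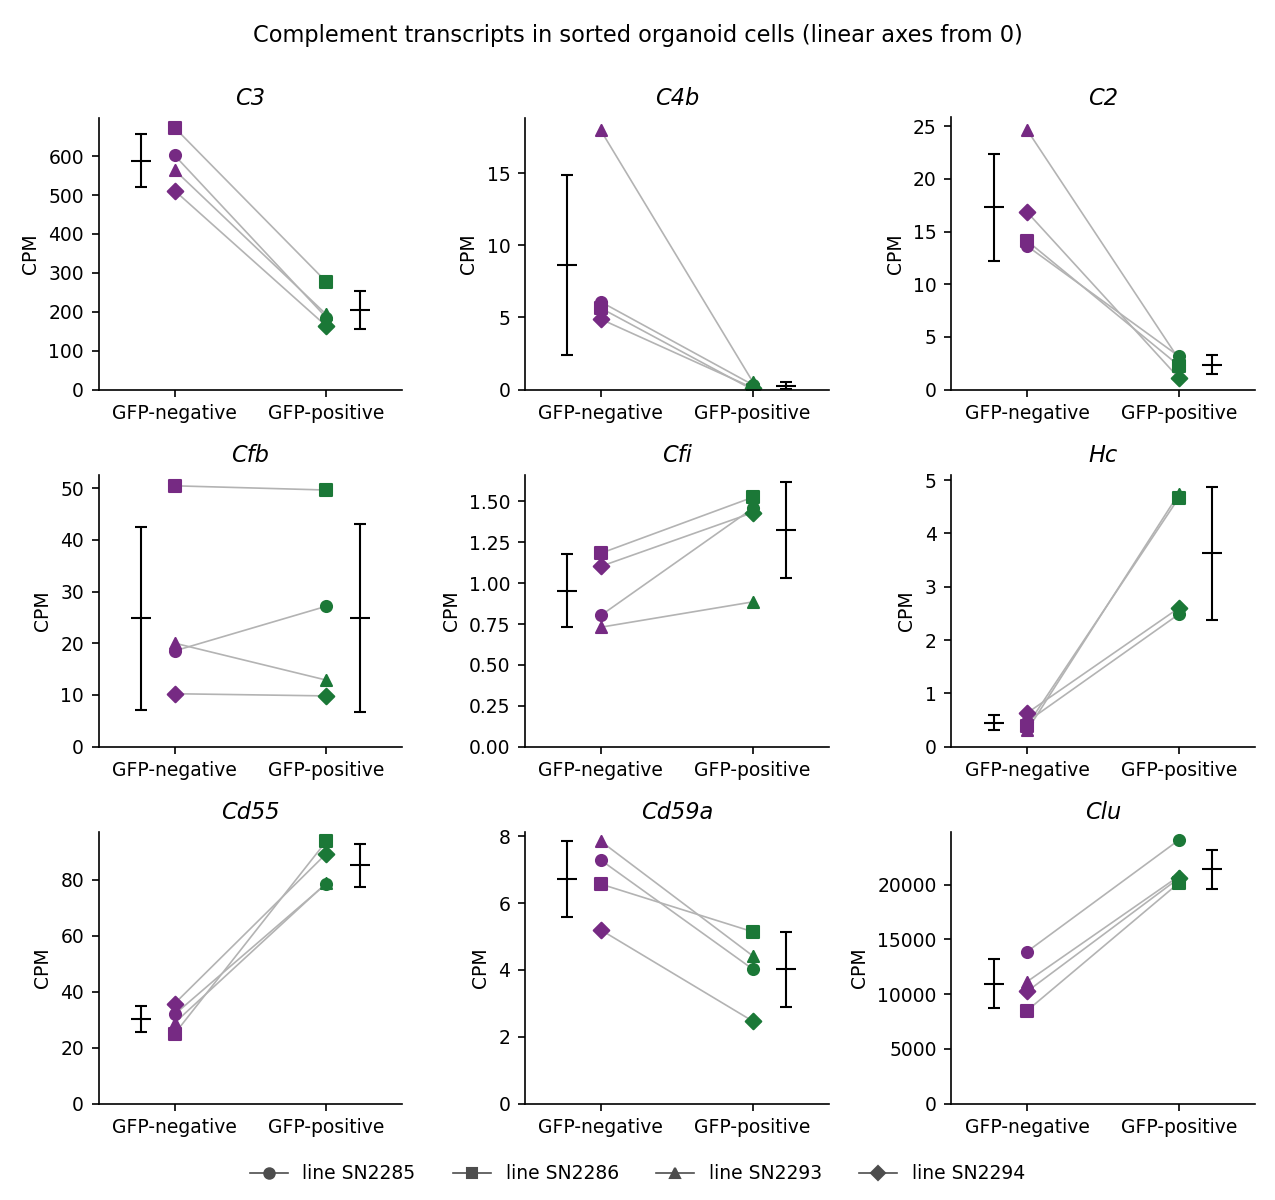
CPM of each of the 9 genes in GFP-negative and GFP-positive cells on linear axes from 0; symbols are libraries, grey lines join the 2 libraries of a line, and black bars give mean ± SD (n = 4). Hc, Cd55 and Clu rise from left to right in each line, C3, C4b, C2 and Cd59a fall, and Cfb is highest in line SN2286 and lowest in line SN2294 in each sort.

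The promoters of 4 of the 9 genes are in the RefSeq promoter table of build GRCm38.p6, and these are shown because only they were available. The 250 bases before the start of transcription were searched on each strand for motifs of factors known from inflammatory gene control: C/EBP (TTGCNNAA), STAT (TTCNNNGAA), IRF (GAAA, any 2 bases, GAAA), AP-1 (TGANTCA) and NF-kB (its usual consensus of 10 letters). Capitals mark a match, and none of the matches overlapped another. C3 and Cd59a were lower in GFP-positive cells, Cd55 and Hc higher.
C3 (chr17:57228137-57228386, minus strand): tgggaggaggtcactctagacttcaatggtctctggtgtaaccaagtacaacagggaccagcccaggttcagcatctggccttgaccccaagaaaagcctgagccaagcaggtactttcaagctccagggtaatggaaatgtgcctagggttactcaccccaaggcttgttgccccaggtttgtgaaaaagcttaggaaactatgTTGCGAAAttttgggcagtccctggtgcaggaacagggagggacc
Cd59a (chr2:104095551-104095800, plus strand): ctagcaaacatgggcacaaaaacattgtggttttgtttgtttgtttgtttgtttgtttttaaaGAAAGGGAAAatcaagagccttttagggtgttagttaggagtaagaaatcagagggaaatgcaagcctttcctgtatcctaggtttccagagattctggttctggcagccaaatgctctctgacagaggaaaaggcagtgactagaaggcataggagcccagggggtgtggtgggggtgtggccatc
Cd55 (chr1:130462745-130462994, minus strand): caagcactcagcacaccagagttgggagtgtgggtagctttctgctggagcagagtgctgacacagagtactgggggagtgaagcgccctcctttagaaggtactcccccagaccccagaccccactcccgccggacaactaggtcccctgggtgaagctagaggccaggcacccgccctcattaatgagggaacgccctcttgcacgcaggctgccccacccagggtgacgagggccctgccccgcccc
Hc (chr2:35061413-35061662, minus strand): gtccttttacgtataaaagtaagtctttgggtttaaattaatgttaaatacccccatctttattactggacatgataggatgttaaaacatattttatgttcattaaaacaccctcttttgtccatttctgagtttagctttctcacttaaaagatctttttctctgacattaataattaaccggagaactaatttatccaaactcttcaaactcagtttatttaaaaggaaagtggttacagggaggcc
The C3 window held 1 match, to the C/EBP motif, 45 to 38 bases before the start, and 9.56% of 32851 promoter windows of this length hold that motif. The Cd59a window held 1 match to the IRF motif, 187 to 178 bases before the start, which 2.98% of all windows hold. The letters of the STAT, AP-1 and NF-kB motifs were in none of the 4 windows, as against 7.02%, 6.75% and 3.90% of all windows that hold them. The Cd55 and Hc windows held no match. Such matches describe letters only, and binding was not measured.

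Outside the 9 genes, 49 further complement genes of a list drawn from general knowledge had a row. Of these, 11 passed the filter on low counts, 2 were higher in GFP-positive cells, 6 lower and 3 not called, and another 11 had no read in any library. The share called over all genes was 40.7%, with 18.9% higher and 21.8% lower. The median log2 fold change of those tested in the list was −0.67, against −0.01 over all genes.

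The starting proteases of the classical route were lower in GFP-positive cells. C1s (now C1s1), which cleaves C4 and C2, was at 2.23 ± 0.630 CPM (SD, n = 4) against 29.7 ± 8.87 CPM (log2 ratio −3.75 ± 0.25 SE, edgeR adjusted p = 5.9e-07). C1ra, which activates it, was at 2.73 ± 1.20 against 10.5 ± 1.73 CPM (log2 ratio −1.97 ± 0.27 SE, edgeR adjusted p = 1.1e-04). Its copy C1rb had 0 reads in all 8 libraries, and 48.0% of the 50-base stretches of C1ra occur in C1rb as well, so the C1ra value is uncertain. C1s shares 24.3% of such stretches with C1s2. C1rl (log2 fold change −0.67) and the properdin gene Cfp (−0.52), whose product stabilizes the alternative enzyme, were not called. With line as a term Cfp was called lower (adjusted p = 0.036, edgeR), as was C1qbp, a binding protein of C1q (log2 fold change −0.26, adjusted p = 0.0066, edgeR).

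Mbl1, a mannose-binding lectin that starts the lectin route, went the other way. It stood at 6.34, 6.19, 9.58 and 5.07 CPM in GFP-positive and 1.07, 0.854, 2.01 and 1.42 CPM in GFP-negative cells, in the same order of lines. That was 5.05-fold higher (log2 ratio 2.34 ± 0.31 SE, edgeR adjusted p = 8.2e-05), with no overlap. C6, a component of the pore, was also higher, at 2.15 ± 0.724 against 0.640 ± 0.435 CPM (log2 ratio 1.85 ± 0.52 SE, edgeR adjusted p = 0.013). It was the only one of 6 further terminal components to pass the filter. C8a, C8b and C9 had 0 reads in all libraries, which allows up to 3 reads, or 0.183 to 0.473 CPM, in each.

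The 3 regulators of the list that were tested outside the 9 genes were lower in GFP-positive cells, 1 of them by a wide margin. Serping1, the soluble inhibitor of C1r and C1s, stood at 3.83 ± 1.46 against 116 ± 28.1 CPM (log2 ratio −4.95 ± 0.30 SE, edgeR adjusted p = 4.5e-06). Cr1l, the rodent membrane regulator also known as Crry, differed little, at 41.1 ± 3.87 against 51.8 ± 2.58 CPM (log2 ratio −0.33 ± 0.09 SE, edgeR adjusted p = 0.0099). Susd4, at −0.70, lost its call without the GFP-negative library of line SN2286 (adjusted p = 0.065, edgeR).

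Among the receptors, Itgb2, the shared chain of the leukocyte integrins that bind C3 fragments, was lower in GFP-positive cells (log2 ratio −3.14 ± 0.65 SE, edgeR adjusted p = 0.0030). Its GFP-negative levels were 4.08 CPM in line SN2285, 2.69 in SN2286, 2.43 in SN2293 and 8.35 CPM in SN2294. Without the latter library the log2 fold change was −2.69, without line SN2294 altogether −2.32 and with the GFP-positive cells of line SN2285 left out −4.09, and the call held in each. Itgax reached 8.35 CPM, Itgam 4.73, C1qb 5.51, C1qc 2.52 and C3ar1 2.52 CPM in that same GFP-negative library, and each stood at most at 0.201 CPM in all others. Itgb2, Itgam and Itgax are themselves leukocyte markers of the list above, and the part of leukocytes in these values was not tested.

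**Figure D3:**
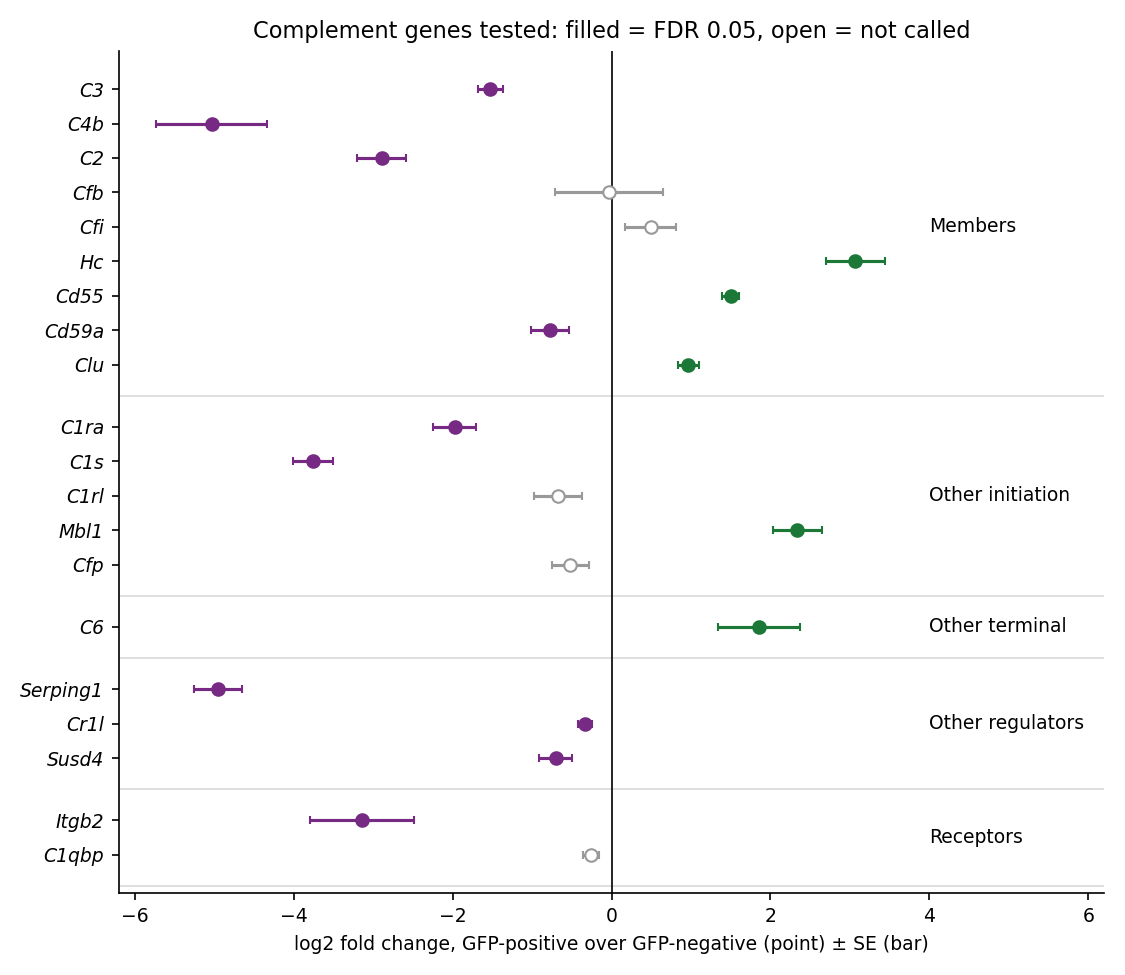
Log2 fold change ± SE, GFP-positive over GFP-negative, for 20 complement genes tested, grouped by role; filled points passed the FDR of 0.05 (green higher, purple lower) and open points did not. C1ra, C1s, C2, C4b and Serping1 lie to the left, and Hc, Mbl1, C6, Cd55 and Clu lie to the right. Cfb and C1rl are among the open points.

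In the GFP-negative cells, 6 of the 10 listed complement genes called lower in GFP-positive cells had their highest level in line SN2293. These were C4b, C2, Cd59a, C1ra, C1s and Serping1. The share of all genes with their highest level in this line was not computed, so whether the count is particular to complement genes is not known. Relative to line SN2293, C1s stood at 52.2%, 60.2% and 68.4% in lines SN2285, SN2286 and SN2294. In the same order, Serping1 stood at 67.3%, 69.0% and 59.3%, and C4b at 33.9%, 31.5% and 27.2%. C4b, Cd59a and Serping1 were lowest in line SN2294. The summed fibroblast markers were also highest in line SN2293, at 699 CPM, against 463, 383 and 539 CPM in the other 3. Their sum was lowest in line SN2286. Summed basal markers peaked in line SN2285, at 2580 CPM, against 2030, 2170 and 2440 CPM in lines SN2286, SN2293 and SN2294. C3 had another order, highest in line SN2286 and lowest in line SN2294. The summed club cell markers were likewise highest in line SN2286 in each sort, at 2210 CPM in GFP-negative and 344 CPM in GFP-positive cells, and lowest in line SN2294, at 1520 and 55.6 CPM. Of the 344 CPM, 182 came from Scgb3a1, which was not called between sorts. In GFP-negative cells line SN2293 came close to the lowest sum, at 1550 CPM. In that sort Cyp2f2, Cbr2, Scgb3a1 and Scgb1a1 were each highest in line SN2286 and lowest in line SN2294. Hp was not, at 571, 806, 564 and 858 CPM in lines SN2285, SN2286, SN2293 and SN2294. All 8 fibroblast markers that passed the filter were lower in GFP-positive cells, as were all 7 basal markers. The part of fibroblasts, basal cells or club cells in the complement values was not tested.

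Lines were compared in the fit that held sort and line as terms, a test chosen after the levels of Cfb were seen. Between lines, 683 genes, 5.32% of those tested, were called, among them 3 of the 9 genes and 4 of the 20 listed complement genes tested. Cfb gave adjusted p = 0.0013, C4b 0.016 and C3 0.033, and beyond the 9 genes Serping1 gave 0.041 (edgeR). These calls depended on which lines were kept, and a fit without a line also holds fewer libraries. Without line SN2286 that of C3 was lost (adjusted p = 0.40, edgeR), without line SN2293 those of C4b (0.84) and Serping1 (0.40), and without either line SN2286 (0.091) or line SN2294 (0.080) that of Cfb. C2 was called between lines once line SN2294 was left out (0.049).

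The 3 genes nearest to Cfb in profile were Ifi47, Parp14 and Ube2l6, which are known as interferon-induced genes. Nearness was the root mean square distance of gene-centred log2 CPM over 8 libraries, which was 0.30, 0.37 and 0.39. Parp14 stood at 147, 234, 119 and 63.3 CPM in GFP-positive and 168, 217, 142 and 63.3 CPM in GFP-negative cells of lines SN2285, SN2286, SN2293 and SN2294. Like Cfb, these genes were highest in line SN2286 and lowest in line SN2294 in each sort. Since they were picked for nearness to Cfb over the same 8 libraries, this shared order of lines is set by the choice.

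**Figure D4:**
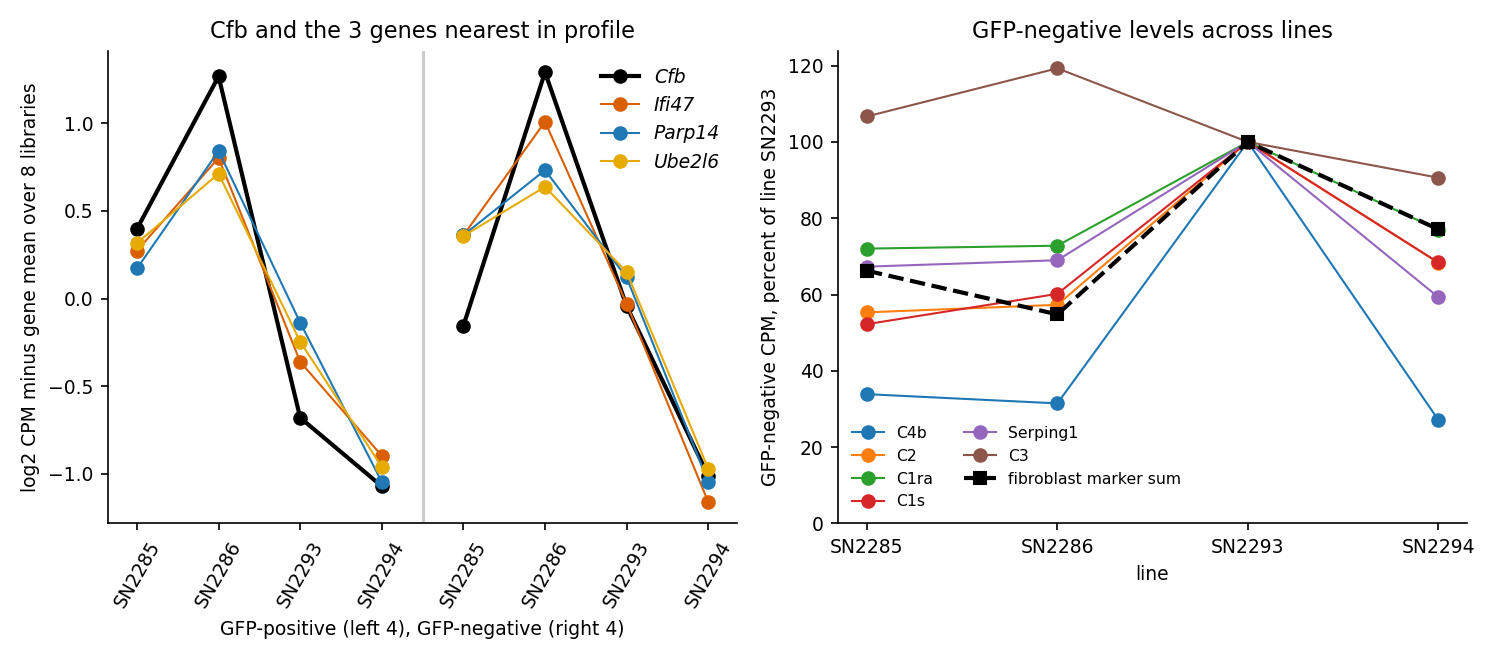
Left, log2 CPM minus the mean over 8 libraries for Cfb and its 3 nearest genes, by line within each sort; right, GFP-negative CPM as percent of line SN2293 for 6 complement genes and the summed fibroblast markers. Cfb peaks in line SN2286 in each sort, and C4b, C2, C1ra, C1s and Serping1 peak in line SN2293 while C3 does not.

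The nearest genes of the other members were found in the same way, so that a shared direction between sorts is set by the choice. Those of C4b were Col1a1, Krt17 and Efs (distances 0.45, 0.51 and 0.52), and those of C2 were Col6a1, Cuedc1 and Lbh (0.23, 0.25 and 0.26). C3 lay nearest to Tnfaip2, Xbp1 and Pcdh19 (0.12, 0.14 and 0.15), with Tert and Lipa (0.14 and 0.14) among the 3 nearest to Cd59a and Fam63a and Nme6 (0.19 and 0.20) among those of Cfi. Hc lay nearest to Lcp1, D10Bwg1379e and Matn4 (0.35, 0.36 and 0.36), Cd55 to Elovl7, Rhou and Pcbd1 (0.08, 0.09 and 0.09) and Clu to Akr1b8, Tnfaip8l1 and Lmo7 (0.08, 0.08 and 0.08).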

How the data were processed

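Polyadenylated RNA of sorted cells was sequenced in 8 libraries, each prepared from 300 ng RNA in 14 PCR cycles, per the labels' protocols. The authors deposited a table of raw counts of reads, 1 row for each gene symbol, without normalization. Per the submitters' processing notes, cutadapt 1.16, STAR 2.5.3a, featureCounts, Subread and build mm9 were used. No source used here gives the annotation, strand setting or handling of multiply mapped reads, so overlapping, antisense and near-identical genes can share or lose reads.

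Counts were tested in R 4.3.3 with edgeR 4.0.16: filterByExpr (10 scaled counts in 4 libraries, 15 in total), TMM factors, sort as the only term, robust quasi-likelihood test, Benjamini-Hochberg adjustment over 12848 genes and an FDR of 0.05. SE is the log2 fold change over the root of F. Log2 CPM used a prior count of 2. Lengths are of principal transcripts in GENCODE M21 (another build, used for lengths and shared 50-base stretches only). Named are all 9 genes, tested complement genes, the 4 acute phase genes with the smallest p, and the 3 nearest genes with log2 CPM of 3 or more; others were named after their values were seen, and a few genes these rules name are not reported here. The genes and lists were chosen with earlier results of these data known. The test was checked on simulated counts.

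The line pairs the libraries of the sorts. As deviations from group means, libraries of 1 line correlated across genes at r = 0.358 (SN2285), 0.444 (SN2286), 0.317 (SN2293) and 0.368 (SN2294), and those of different lines at −0.298 to −0.0253. Centring on group means makes the latter negative on average where the former are positive. Genes are not independent replicates. Alternatives were line as a term, library size alone, upper quartile factors, DESeq2 1.42.0, no filter, and leaving out each library or line SN2294.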

Additional observations from a re-analysis of the deposited data

Results flagged for a closer look

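Of 40 groups of 4 libraries (20 complement genes in 2 sorts), 5 held a library far from the other 3 on the scale of log2(CPM + 0.1), where chance gives about 1 in 20 groups. C4b in GFP-negative cells of line SN2293 was at 18.0 CPM against 4.88 to 6.08 in the other lines. Cfi in GFP-positive cells of line SN2293 was at 0.885 CPM (11 reads) against 1.43 to 1.52 (16 to 22 reads). Clu in GFP-positive cells of line SN2285 was at 24078 CPM against 20163 to 20780. C1rl in GFP-negative cells of line SN2294, the shallowest library, was at 1.26 CPM (8 reads) against 2.435 to 2.497 (37 to 40 reads). The rule takes no account of counting error, which is large at such read numbers. Cfp in GFP-positive cells of line SN2293 was at 6.68 CPM against 4.032 to 4.199.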

How the results depend on the processing

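The 3 higher and 4 lower calls among the 9 genes kept their numbers under line as a term (the replicate block, 6169 calls in place of 5231 over all genes), library size alone, upper quartile factors, no filter and DESeq2. Leaving out libraries gave 3 higher and 3 to 4 lower, where the call lost was that of Cd59a. The block changed no call among the 9 genes, and of other named genes those of Cfp, C1qbp and Lcn2, each then called. Scaling by library size alone moved the median log2 ratio over all genes from −0.01 to −0.16 and the genes called higher from 2430 to 1505, so that 26.4% of calls were higher in place of 46.5%. C1rl, Cfp and C1qbp were then called lower. Over 14 alternatives the log2 fold change of C3 ran from −1.70 to −1.43, of C2 from −3.07 to −2.63, of Hc from 2.90 to 3.33, of Cd55 from 1.35 to 1.58 and of Clu from 0.82 to 1.11. Cfb, never called, ran from −0.61 to 0.57. Other complement genes called higher numbered 4 in place of 2 without a filter and 4 with DESeq2, where Daf2 and Cpn1 were added, as the main test had left them out for low counts. Those called lower numbered 6 in the main test and 5 to 9 over the alternatives, with Masp1 among those added without a filter and C3ar1 added with DESeq2. Depth limits what can be said of genes with a few reads per library, such as C4b in GFP-positive and Hc in GFP-negative cells: 3 reads correspond to 0.183 to 0.473 CPM.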

Other observations

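Acute phase genes, which liver and epithelia raise in inflammation, were a further group. Of 20 rows, 8 passed the filter, 1 was called higher and 6 lower in GFP-positive cells, where 18.9% of all genes tested were called higher and 21.8% lower. The haptoglobin gene Hp, also on the list of club cell markers, stood at 49.2 ± 16.0 CPM (SD, n = 4) in the GFP-positive sort and 700 ± 154 CPM in the other (log2 ratio −3.83 ± 0.27 SE, edgeR adjusted p = 1.1e-05). The glycoprotein gene Lrg1 went the other way, at 139 ± 14.9 against 9.53 ± 4.05 CPM (log2 ratio 3.85 ± 0.27 SE, edgeR adjusted p = 1.1e-05). Serpina3n, at 0.984 ± 0.482 against 28.6 ± 15.7 CPM, and the pentraxin gene Ptx3, at 0.0766 ± 0.114 against 3.64 ± 2.35 CPM, were lower. Lcn2, the lipocalin gene, named after its value was seen, was abundant in each sort, at 2608 ± 376 and 2022 ± 827 CPM, without a call (adjusted p = 0.32, edgeR). With line as a term it was called higher (adjusted p = 0.014, edgeR), and line SN2286 alone had the GFP-negative library above the GFP-positive one. Likewise named later, Lbp, the lipopolysaccharide-binding protein gene, was called lower (log2 fold change −0.80, adjusted p = 0.023, edgeR) and differed between lines (adjusted p = 0.0013), with line SN2286 the highest in each sort. Its call between sorts was lost in 5 of the alternatives that leave out libraries.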
